A study of Saccharomyces cerevisiae with 4 samples.

Results

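The subject here is the transcript population of the budding yeast strain BF2 after salt: which of its messages gave a strong, a moderate or no measurable signal. BF2 lacks BDF1 (bdf1∆), carries the plasmids pYX242 and pRS316, and had been kept in 0.6 mol/L NaCl for 45 min. Its RNA was hybridised on 4 oligonucleotide array slides, each time together with RNA of a second salt-treated strain in the other dye. On 2 slides that strain was BF2B, bdf1∆bdf2∆ with BDF2 L and pYX242, and on the other 2 it was BF2S, bdf1∆bdf2∆ with BDF2 L and SIR2 H. The labels do not say what L and H stand for. Only the BF2 channel was used, which is 4 of the 8 channels of the series: BF2 was labelled with Cy3 on slide 1 and with Cy5 on slide 2 of each pair. Every one of the 6388 gene probes of the array was kept, so the members are 6388 genes of 6388. All strains in the series lack BDF1 and all were in salt. The levels below are therefore a description of 1 strain in 1 condition, and no effect of salt or of the deletion can be read from them. The labels do not say whether the BF2 RNA on the 4 slides came from 1 culture or several. The slides of a pair also differ in the dye of BF2, so the parts of culture, dye and hybridisation in the spread between slides cannot be told apart. No test was made, and each SD is over the 2 slides of a pair.

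Bdf1 is a bromodomain protein that reads acetylated histones and associates with the general transcription factor TFIID, and Bdf2 is its close relative. Yeast cells placed in high salt lose water and activate the mitogen-activated kinase Hog1. Hog1 acts on glycerol production and, with the zinc-finger factors Msn2 and Msn4, on a wide set of stress genes. Glycerol is the solute with which the cell restores its volume, sodium is pumped out by Ena pumps, and trehalose and small heat shock proteins accumulate in many kinds of stress.

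For each gene the background-subtracted signals of its 3 spots were averaged and ranked among all gene probes of the slide. The resulting percentile is the share of gene probes with a signal at or below that of the gene, and it does not change with the brightness of the whole slide. Probes differ in how well they bind, so a percentile places a probe signal and is no count of molecules. A gene was above background on a slide when at least 2 of its 3 spots exceeded the mean of the local background by 2 SD. Genes above background with a percentile of at least 90 on both BF2B slides are called abundant, and the other genes above background on both are called middling. The BF2B slides give the main values and the BF2S slides serve as a check.

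The 2 pairs of slides differed in background. On BF2B slides 1 and 2 the median gene signal was 464.5 and 667.2 brightness units, and the blank spots had medians of 52.0 and 70.5 units. On BF2S slides 1 and 2 the genes had medians of 1222.6 and 1414.3 units, whereas the blank spots stood at 1708.5 and 1767.5 units. Blank spots were thus brighter than most genes on the BF2S slides, and only 21.7% and 18.7% of genes exceeded the 95th percentile of the blanks there, against 71.5% and 85.4% on the BF2B slides. The share of genes above local background was 42.7% and 75.1% on the BF2B slides and 75.5% and 93.8% on the BF2S slides, in each pair higher in Cy5. The pairs also differed by the place of the probe. Probes lie on the slide roughly in genome order, and in row 10 of the printed blocks the 336 genes had a median difference of 13.1 points between the BF2S and the BF2B slides, while the medians of the other 20 rows lay between -4.6 and 0.7 points. Of the 495 genes over 20 points higher on the BF2S slides 125 lie in row 10, where they make up 37.2% of the genes. Row 11 followed with 67 genes, or 19.9%, and the rest are spread over the other rows. The share of genes not above background on either BF2B slide was 33.6% in row 10 and 32.4% in row 11, and it was highest, 37.8%, among the 45 genes of row 23. Genes of rows 10 and 11 are marked as such below where the pairs of slides disagree on them, and the part of the row in those values was not tested. Control spots for ACT1 (actin) had medians equal to gene percentiles 96.6 and 96.8 on the BF2B slides and 92.1 and 91.9 on the BF2S slides. Their gene-probe counterpart was at 91.4 and 94.9 on the BF2B slides and at 87.4 and 90.9 on the BF2S slides.

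**Figure D1:**
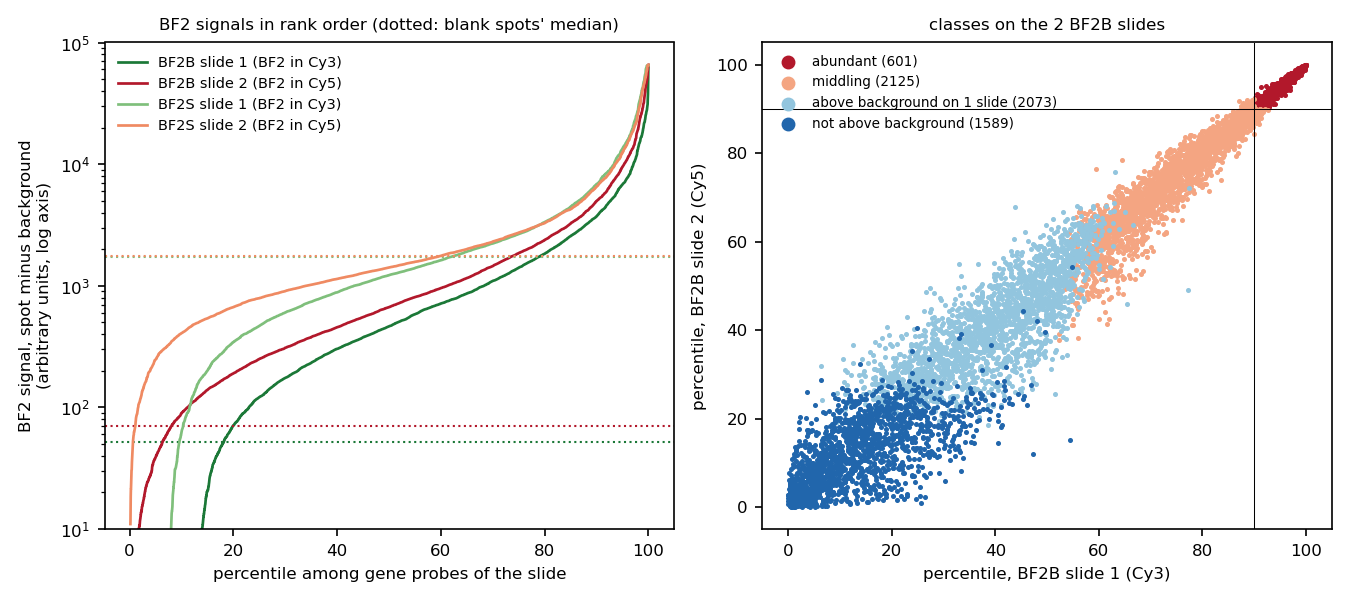
Left, the BF2 signal of every gene probe (log axis, brightness units; values under 10 are not drawn) against its percentile, 1 line per slide, with the median of the blank spots as a dotted line; right, percentiles on the 2 BF2B slides coloured by class, with lines at percentile 90. Blank spots lie near the bottom of the gene signals on the BF2B slides and above most of them on the BF2S slides.

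The classes divided the genes as follows. Abundant genes numbered 601 (9.41% of 6388), middling genes 2125 (33.3%), genes above background on 1 BF2B slide only 2073 (32.5%) and genes above background on neither 1589 (24.9%). Nearly all of the third class, 2070 genes, were above background on slide 2 alone, where BF2 was in Cy5. Median signals of the abundant genes were 7018.3 and 9935.7 units on the BF2B slides, and those of the middling genes 1329.5 and 1761.5 units. Ranks on the 2 BF2B slides were close: Spearman's correlation across genes was 0.977, the median difference was 3.01 points, and 47 genes (0.736%) differed by over 20 points. Between a BF2B and a BF2S slide the correlation was 0.868 to 0.891 across genes, which are not independent replicates, and 783 to 1020 genes differed by over 20 points. Of the abundant genes 543 of 601 (90.3%) were above background and at percentile 90 or more on both BF2S slides too, and the other 58 were middling there. Of the middling genes 2043 (96.1%) were middling on the BF2S slides. Middling was the most common class there, and 1609 (77.6%) of the genes above background on 1 BF2B slide were middling there too. Among all genes 75.5% and 93.8% were above local background on BF2S slides 1 and 2. Of the genes above background on neither BF2B slide, 491 (30.9%) were above on both BF2S slides and 349 (22.0%) on neither. Since 82.7% and 82.5% of blank spots also passed the local-background call on the BF2S slides, a gene that passed it there may be no brighter than a blank spot.

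The gene deleted in BF2 was at the floor. BDF1 (YLR399C) had signals of -143.3 and -3.3 units on the BF2B slides, percentiles 2.48 and 0.38, with 0 of 3 spots above background on either. On the BF2S slides it read 161.2 and 404.8 units, percentiles 13.3 and 9.92, below the median of the blank spots, with 0 of 3 spots above local background on slide 1 and 3 of 3 on slide 2. BDF2 (YDL070W), its intact relative, had 3271.3 and 4906.2 units on the BF2B slides and 6972.0 and 5591.3 units on the BF2S slides. Its percentiles were 88.4 and 89.9 on the BF2B slides and 90.3 and 88.4 on the BF2S slides, so it was middling, close to the line of the abundant class on all 4. SIR2 (YDL042C), for a histone deacetylase of silent chromatin, was not above background on the BF2B slides, with 45.7 and 144.3 units and percentiles 17.4 and 15.4. On the BF2S slides SIR2 read 274.8 and 706.7 units, percentiles 17.66 and 21.5, also below the median of the blank spots. There 0 of 3 spots were above local background on slide 1 and 3 of 3 on slide 2.

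Among the 8 marker genes the plasmid markers stood out. LEU2, the selectable marker of pYX242 and an enzyme of leucine synthesis, reached the scanner's upper limit in all 3 spots on all 4 slides. URA3, the marker of pRS316 and an enzyme of uracil synthesis, was at percentiles 99.05 and 98.95 on the BF2B slides and 99.19 and 98.95 on the BF2S slides. LYS2, for lysine synthesis, was abundant at 92.6 and 92.8 on the BF2B slides. CAN1 (arginine permease), MET17 (sulfide incorporation) and ADE2 (purine synthesis) were middling, with mean BF2B percentiles of 78.1, 71.7 and 68.6. HIS3 and TRP1 were above background on BF2B slide 2 only, at means of 49.1 and 42.3, and TRP1 stood at 15.4 and 8.84 on the BF2S slides.

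The labels give no mating type. Of 8 genes listed as a-specific 2 were middling, 4 were above background on 1 BF2B slide and 2 on neither. Those 4 include STE14, which is not confined to a cells. STE2, the alpha-factor receptor, was at percentiles 86.5 and 85.4 and the a-factor gene MFA2 at 69.5 and 70.9 on the BF2B slides. BAR1, for the protease that degrades alpha-factor, was not above background at 10.5 and 11.7, and ASG7 was not at 21.91 and 19.99. Of 4 alpha-specific genes none was above background on both BF2B slides and 1, SAG1, was on slide 2. MF(ALPHA)1, the main alpha-factor gene, had percentiles of 3.12 and 0.5 on the BF2B slides and 0.94 and 3.33 on the BF2S slides, and the a-factor receptor gene STE3 had 25.4 and 4.44 on the BF2B slides. HMLALPHA2 and HMRA2, which share sequence with each other and with the mating-type locus, were middling at means of 84.5 and 80.7, and their probes cannot assign a signal to 1 of these copies.

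The strongest signals came from stress genes, a few single genes and a large group of unnamed reading frames. Of the 25 genes with the highest mean BF2B percentile, 9 have a symbol in the gene table: GRE1, TAR1, LEU2, HSP12, SED1, CPR1, HBT1, SIP18 and MSC1. GRE1, a hydrophilin gene induced by osmotic stress, had 64992.3 and 65461.0 units on the BF2B slides and all spots at the scanner limit on all 4 slides. HSP12, for a small membrane-associated stress protein, had 46882.2 units on BF2B slide 1 and was at the limit on the other 3 slides. SED1, a cell wall mannoprotein, had 42267.0 units on BF2B slide 1 and was likewise at the limit elsewhere. Order among genes at the limit cannot be read. SIP18, another hydrophilin, had 29728.2 and 45818.3 units on the BF2B slides and 54830.3 and 58484.2 units on the BF2S slides, without saturation. CPR1 is the cytosolic cyclophilin and HBT1 a protein of polarised growth, and both had mean percentiles of 99.9 on the BF2B slides. The probe named TAR1 through a synonym in the gene table had 61618.8 units on BF2B slide 1 and was at the limit on the other 3, and the table places TAR1 inside the ribosomal RNA genes RDN37-1 and RDN25-1. Strands were not separated here, so signal of that probe cannot be told apart from ribosomal RNA.

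The remaining 16 of the 25 have no symbol. Of these, 14 belong to a layout that recurs over the genome: a shorter unnamed frame of 651 to 1437 bases and a longer one of 4645 to 5410 bases that begin at the same place. The array holds 84 such frames, 75 of them were abundant (background 9.41%), and they fill 52 of the 100 highest places. Shorter and longer frames alike had a median mean percentile of 98.8 on the BF2B slides. YMR051C, a shorter frame, had 34943.7 and 60599.7 units on the BF2B slides. Retrotransposons of yeast, the Ty elements, have 2 overlapping frames and exist in many near-identical copies, but the gene table names none of these frames as such. Copies that resemble each other may bind the same cDNA, and the 84 values are then not 84 separate levels. Among the other high places, 37 of 100 are genes with a symbol, with 7 general stress genes, 4 cytosolic ribosomal protein genes, 3 cell wall genes, 2 glycolytic genes and 0 of the respiratory chain.

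For a view by function, 44 lists with 1207 distinct genes were laid over the levels, all of them measured. Over all genes the median of the mean BF2B percentile was 49.7. In 20 lists the median was at or above 75, and in 5 at or below 25. These lists were drawn up with earlier results of these data known, and they are described by counts, beside the shares over all genes of 9.41% abundant and 24.9% not above background.

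**Figure D2:**
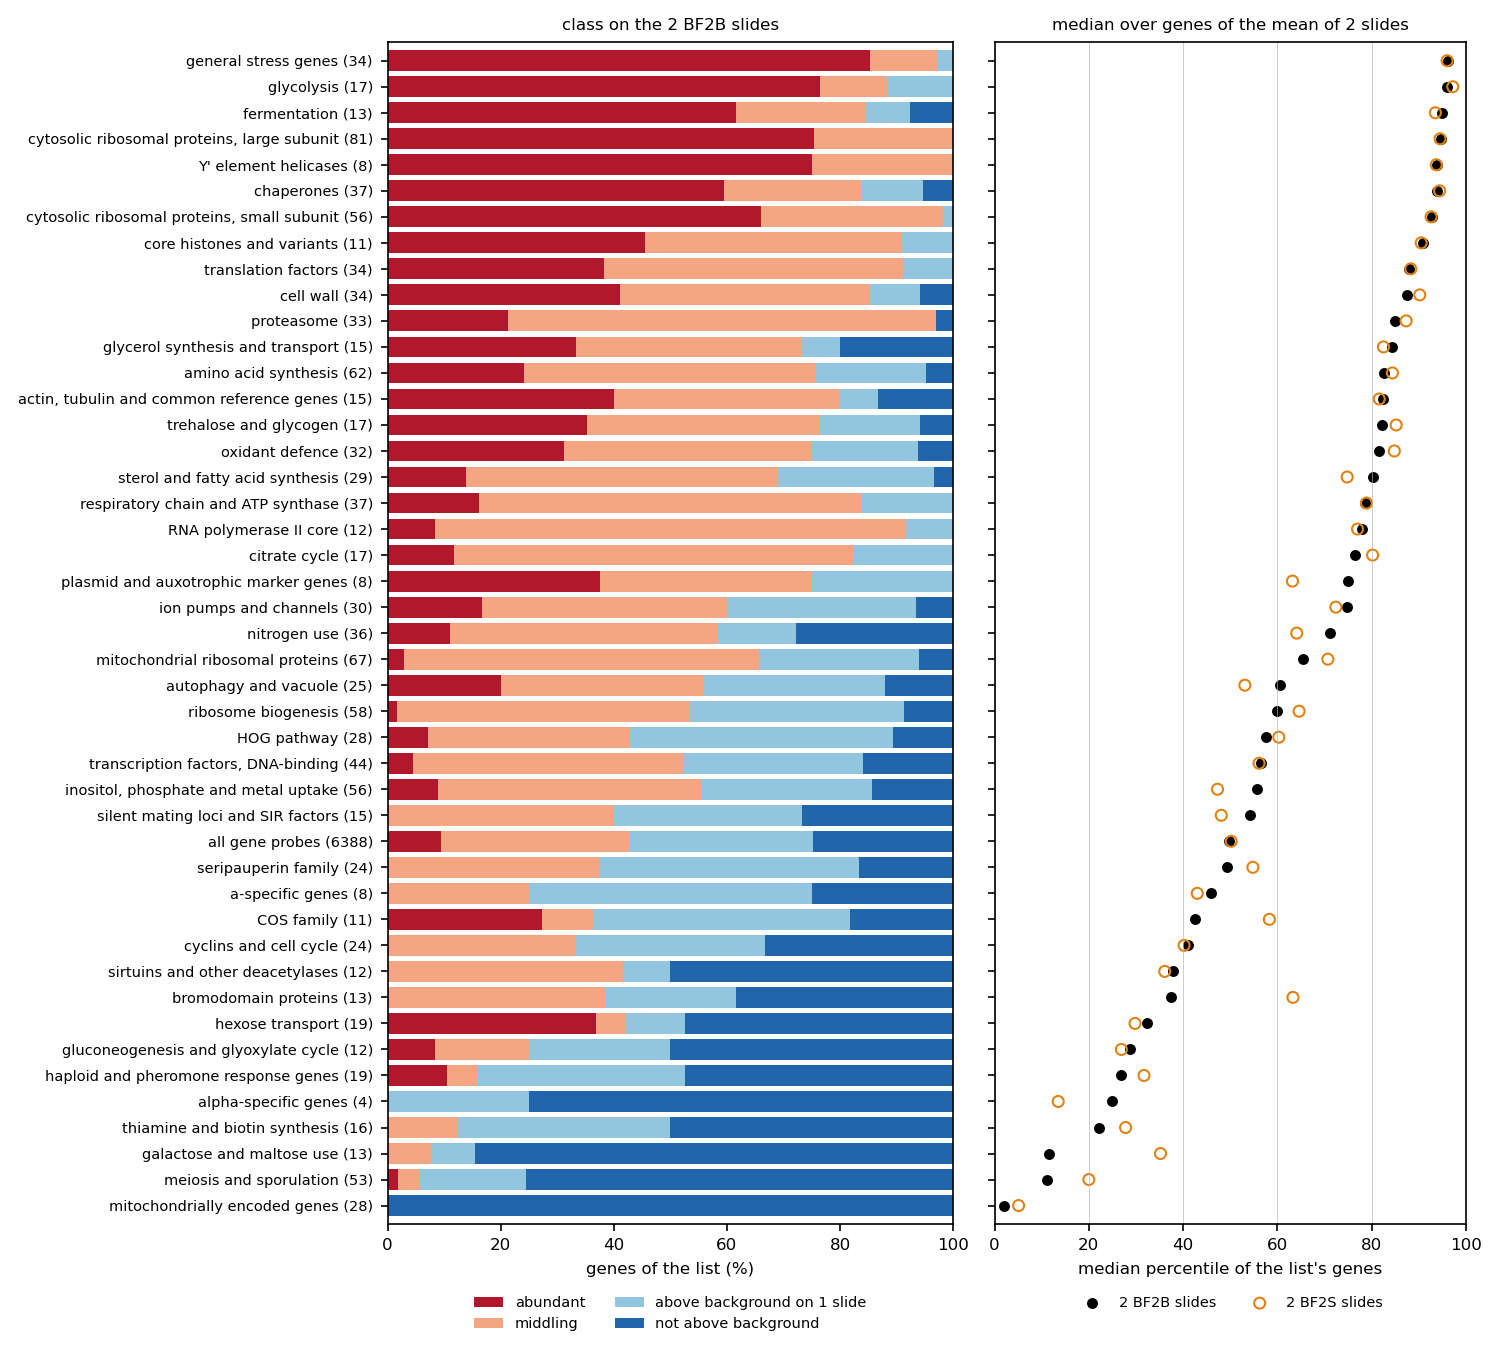
Left, share of each list's genes in the 4 classes of the BF2B slides, with the number of genes in brackets; right, median percentile of the list, filled for the 2 BF2B slides and open for the 2 BF2S slides. Lists are ordered by the BF2B median, with general stress genes at 96.1 at the top and mitochondrially encoded genes at 2.0 at the bottom.

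General stress genes, the targets of Msn2 and Msn4, had the highest median of the 44 lists by mean BF2B percentile, at 96.1 against 95.9 for glycolysis. By single slides they were ahead of glycolysis on BF2B slide 1 only, at 96.2 against 95.2. Glycolysis was higher on BF2B slide 2, at 96.6 against 95.9, and on the BF2S slides, at 97.3 on both against 96.0 and 96.2. Of 34 general stress genes 29 were abundant, 4 middling, 1 above background on 1 BF2B slide and 0 below background on both. Their list median on the BF2S slides was 96.0. The 4 highest were GRE1, HSP12, SIP18 and MSC1. GRX1, a glutaredoxin shared with the list of oxidant defence, was at 96.4 and 96.1 on the BF2B slides, and YGP1, a cell wall stress glycoprotein, at 97.9 and 97.9. CTT1, the cytosolic catalase, had 14830.8 and 21982.8 units on the BF2B slides and 33934.0 and 33521.8 units on the BF2S slides, percentile 98.2 on both BF2B slides. The lowest was GND2, the minor phosphogluconate dehydrogenase, at 36.9 and 47.3 on the BF2B slides and 69.6 and 56.4 on the BF2S slides, and its probe lies in row 10.

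Signalling genes of the HOG pathway were far less bright than the genes downstream. Of 28 genes 2 were abundant, 10 middling, 13 above background on 1 BF2B slide and 3 on neither, with a median of 57.6 on the BF2B slides and 60.3 on the BF2S slides. HOG1 itself was abundant: it had 5749.8 and 7536.8 units on the BF2B slides and 13376.7 and 10361.3 units on the BF2S slides, and its percentiles of 93.57 to 94.99 lay close together on the 4 slides. PTC3, a phosphatase that acts on Hog1, was the other abundant member at 91.1 and 91.0. RCK2, a kinase that Hog1 phosphorylates, and CDC42, the small GTPase upstream, were just below the line at means of 90.1 and 89.6, with 1 of the 2 BF2B slides under 90 for each. The 10 sensors and upstream proteins had a median of 57.6, the 7 kinases 75.2, the 5 phosphatases 68.0 and the 6 transcription factors 45.7. MSN2 had percentiles of 81.4 and 75.9 on the BF2B slides, and MSN4 had 43.2 and 35.0. SSK22, a kinase kinase kinase of the pathway, was lowest at 5.79 and 10.3, and at 53.6 and 37.9 on the BF2S slides.

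Glycerol genes split by step. Of 15 genes 5 were abundant, 6 middling, 1 above background on 1 slide and 3 on neither. GPD1, the glycerol 3-phosphate dehydrogenase of the salt response, had 15417.7 and 27404.3 units on the BF2B slides and 31051.8 and 26198.7 units on the BF2S slides, percentiles 98.4 and 98.8 and then 98.1 and 98.0. GPD2, the isoenzyme known for redox balance without oxygen, had 155.8 and 512.3 units on the BF2B slides, percentiles 28.2 and 43.0, and was above background on slide 2 only. Both glycerol phosphatases were abundant, GPP1 at 94.3 and 94.2 and GPP2 at 93.3 and 93.2 on the BF2B slides. The 4 transport genes had a median of 65.8, with 3 middling and 1 not above background. Of 7 genes for glycerol use the dihydroxyacetone kinase gene DAK1 was at 96.8 and 97.3 and its paralogue DAK2 at 1.96 and 4.33, not above background, while GCY1, a glycerol dehydrogenase, was at 96.2 and 96.7.

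Trehalose and glycogen genes had a median of 82.2, with 6 of 17 abundant. The 4 genes of trehalose synthesis had a median of 97.0: TSL1 and TPS1 lay at means of 98.8 and 98.7, the phosphatase gene TPS2 at 95.3, and TPS3 at 73.0. Trehalose breakdown, with 3 genes, had a median of 80.8. GDB1, the glycogen debranching enzyme, was abundant at 92.4 and 93.3. Among 30 genes of ion pumps and channels 5 were abundant. The group listed as proton pumps (5 genes) had a median of 95.3, but not all of its members are pumps. It holds PMA1, the plasma membrane ATPase, at 96.8 and 97.2, and its paralogue PMA2 at 85.0 and 82.6. The others are genes of small membrane proteins, PMP1 at a mean of 95.3, PMP2 at 90.8, and PMP3. The sodium export genes (5 genes) had a median of 85.0 with 4 middling and 0 abundant, and ENA1, the sodium pump, had 2669.0 and 3729.7 units on the BF2B slides, percentiles 85.6 and 87.0. The ENA copies are near-identical in tandem and may not be separated by these probes, although ENA5 read 43.4 and 47.1. PMP3, a small membrane protein of salt tolerance, was highest of the list at 97.8 and 96.7. Calcium transport and calcineurin genes (11) had a median of 49.0, with CCH1, a calcium channel subunit, at 1.53 and 13.1 on the BF2B slides and at 43.3 and 57.7 on the BF2S slides, in row 10.

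**Figure D3:**
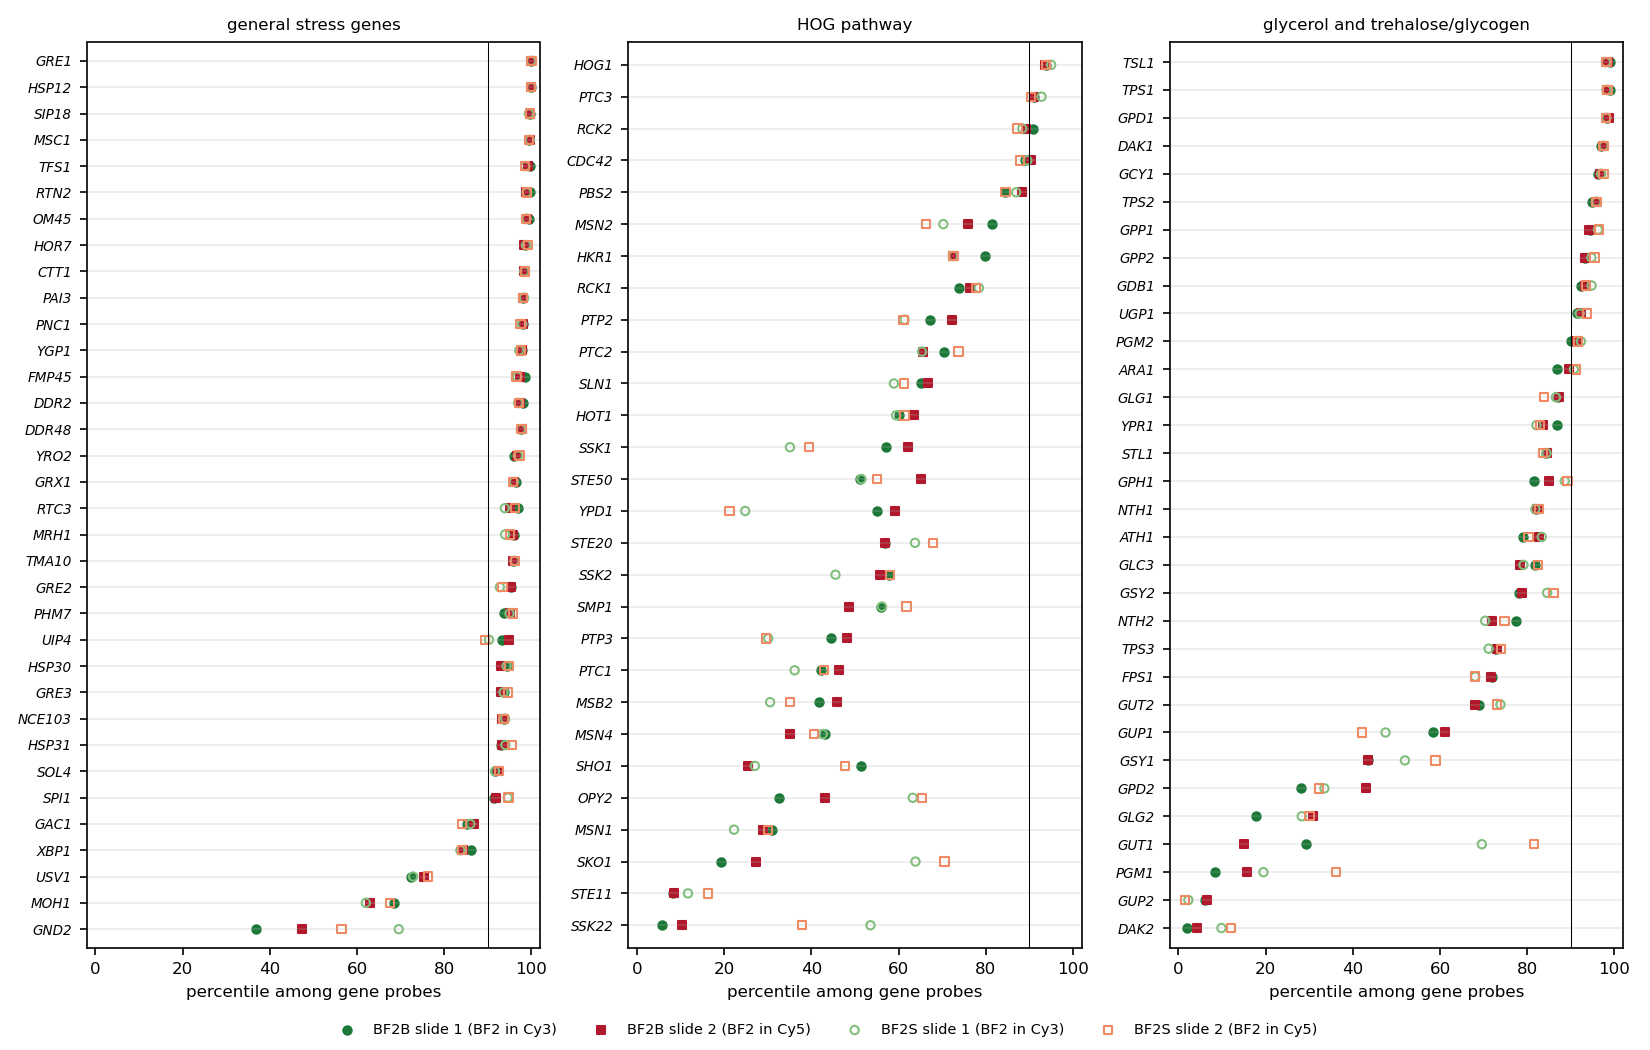
Percentile of each gene on the 4 slides for general stress genes, the HOG pathway and the genes of glycerol, trehalose and glycogen; filled symbols are BF2B slides and open symbols BF2S slides, circles Cy3 and squares Cy5, with a line at percentile 90. Points of general stress genes crowd above 90, and those of the HOG pathway are spread over the whole range.

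Chaperone and oxidant defence genes were bright in part. Of 37 chaperone genes 22 were abundant, with a median of 93.9. All 4 genes of small heat shock proteins and the disaggregase were abundant at a median of 97.6, among them HSP26 at 99.4 and 99.4 on the BF2B slides. The cytosolic Hsp70 genes SSA1 and SSA2 had means of 98.8 and 98.4, and SSC1, the mitochondrial Hsp70, 98.7. SSZ1, a ribosome-associated Hsp70 relative, was not above background at 14.7 and 21.8 on the BF2B slides and read 43.3 and 50.3 on the BF2S slides, in row 10. Of 32 oxidant defence genes 10 were abundant, led by the peroxiredoxin AHP1 at 99.7 and 99.5, CTT1 at 98.2 and the glutaredoxin GRX2 at 96.9 and 96.0. YHB1, the flavohaemoglobin, was not above background at 13.9 and 13.7 on the BF2B slides and was at 49.3 and 70.2 on the BF2S slides, in row 11.

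Genes of glucose breakdown were about as bright as the stress genes, and which of the lists had the higher median differed between slides. In glycolysis 13 of 17 genes were abundant, 2 middling, 2 above background on 1 BF2B slide and 0 on neither, with medians of 95.2 and 96.6 on the BF2B slides and 97.3 on both BF2S slides. PGK1, phosphoglycerate kinase, had 23455.0 and 35259.8 units on the BF2B slides and 64074.5 and 65028.3 units on the BF2S slides, where 2 spots on slide 1 and 1 on slide 2 were at the scanner limit, so the BF2S values are lower bounds. TDH2 and TDH1, 2 of the 3 near-identical glyceraldehyde phosphate dehydrogenase genes, were at means of 98.8 and 98.3, and the mutase gene GPM1 was at 98.2. PFK1, a subunit of phosphofructokinase, was lowest at 34.3 and 31.7 on the BF2B slides and 72.0 and 43.7 on the BF2S slides, in row 10. In fermentation 8 of 13 genes were abundant. The pyruvate decarboxylase gene PDC1 had a mean of 98.5, the aldehyde dehydrogenase genes ALD3 and ALD4 had 98.7 and 96.1, and the alcohol dehydrogenase gene ADH1 had 90.58 and 93.44 on the BF2B slides. ADH4 was not above background at 46.1 and 23.1.

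Sugar uptake divided sharply. Of 17 hexose transporter genes 7 were abundant, 1 was above background on 1 slide and 9 were not above background, with none middling. HXT5, a transporter of slow growth and stress, was highest at 98.8 and 97.9 on the BF2B slides, followed by HXT2 at a mean of 97.5, HXT1 at 97.0 and HXT3 at 96.3. GAL2, the galactose permease, had -127.8 and 8.2 units on the BF2B slides and 0 spots above background on any slide. Several HXT genes resemble each other closely, so their probes may share signal. Of 13 genes of galactose and maltose use 11 were not above background, with GAL80, the repressor, middling at 65.2 and 63.7 and MAL32, a maltase, at 1.46 and 2.23. Their list median was 11.6 on the BF2B slides and 35.2 on the BF2S slides, for example with GAL3, the galactose sensor, at 24.5 and 14.8 on the BF2B slides and at 73.7 and 46.7 on the BF2S slides. Gluconeogenesis and the glyoxylate cycle had a median of 28.7 with 6 of 12 genes not above background. CIT2, the peroxisomal citrate synthase, was the only abundant gene of the list at 90.5 and 92.2, and MDH2 and SIP4 were middling at means of 72.1 and 55.2. SFC1, a mitochondrial succinate-fumarate carrier, was lowest at 0.77 and 3.28.

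Nuclear genes of respiration were middling as a rule. Of 37 genes of the respiratory chain and ATP synthase 6 were abundant and 25 middling, with a median of 78.5. ATP1, the alpha subunit of the ATP synthase, was highest at 95.5 and 95.4, and QCR6 of complex III was at 95.9 and 93.1. COX6 of complex IV was lowest at 23.3 and 33.8 on the BF2B slides and 54.1 and 60.0 on the BF2S slides, in row 10. The 17 citrate cycle genes had a median of 76.5 with 12 middling, and LSC1, a subunit of succinyl-CoA ligase, and ACO1, aconitase, were abundant at means of 92.5 and 91.3. All 28 probes of the mitochondrial genome were above background on neither BF2B slide, with a median of 2.0 on the BF2B slides and 5.1 on the BF2S slides. OLI1, a subunit of the ATP synthase encoded there, read 80.3 and 8.7 units on the BF2B slides and -101.3 and 131.8 units on the BF2S slides. SCEI, also encoded there, was above local background on both BF2S slides at 880.8 and 773.8 units. Both values were below the medians of the blank spots. Whether the RNA amplification takes up mitochondrial transcripts was not tested, so these values do not show their absence.

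Protein synthesis genes were bright in the product and less so in the makers of the ribosome. Of 81 large-subunit ribosomal protein genes 61 were abundant and 20 middling, and of 56 small-subunit genes 37 were abundant, 18 middling and 1 above background on 1 slide. Their medians on the BF2B slides were 94.8 and 92.8. RPL5, the 5S RNA binder, was highest of the large subunit at a mean of 98.7, and RPS6B and RPS6A of the small subunit were both at 98.6. Most of these genes exist in near-identical pairs, which the probes may not separate. RPL22B was lowest of the large subunit at 66.1 and 65.8. RPS0A was lowest of the small subunit with 301.8 and 665.7 units on the BF2B slides, percentiles 39.8 and 49.9, and with 72.2 and 73.2 on the BF2S slides, in row 10. Translation factors had a median of 88.0 with 13 of 34 abundant, and the 11 elongation factors among them had 94.0, with TEF2 (EF-1 alpha) at a mean of 97.7 and YEF3 (elongation factor 3) at 95.7. Mitochondrial ribosomal proteins had a median of 65.5, with 2 of 67 abundant. Ribosome biogenesis genes had 59.9, with 1 of 58 abundant: CBF5, the snoRNP pseudouridine synthase, at 94.5 and 94.3. RNA polymerase II core genes had a median of 77.9 with 10 of 12 middling, and its largest subunit gene RPO21 was abundant at 96.7 and 95.7 on the BF2B slides and middling at 89.0 and 85.7 on the BF2S slides.

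Protein breakdown was measured as well. Of 33 proteasome genes 7 were abundant, 25 middling and 1 not above background, with a median of 85.0. PRE6, a subunit of the core, was highest at 98.1 and 97.7. PUP2, another core subunit, had -99.3 and 189.3 units on the BF2B slides and 1779.8 and 1553.3 units on the BF2S slides, and lies in row 10. The 7 vacuolar protease genes had a median of 96.5 with 5 abundant, led by the aminopeptidase gene APE3 at 98.8 and 98.5 and the protease A gene PEP4 at 98.3 and 98.3, while the 18 ATG genes of autophagy had 47.5 with 0 abundant.

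Of 34 cell wall genes 14 were abundant, with a median of 87.4. After SED1 came HSP150, a wall protein of the PIR family, at 99.8 and 99.4, the mannoprotein gene CCW12 at 99.2 and 98.8, and YGP1. TIR3, a mannoprotein induced without oxygen, was not above background at 7.24 and 4.26. Amino acid synthesis had a median of 82.7 with 15 of 62 abundant. ILV5 and ILV2 of the branched-chain pathway were at means of 98.8 and 96.7, and SHM2, serine hydroxymethyltransferase, was at 97.9, whereas PRO1, the first enzyme of proline synthesis, was not above background at 18.7. In sterol and fatty acid synthesis 4 of 6 fatty acid genes were abundant, OLE1, FAS2, FAS1 and ACC1, and 0 of 23 ergosterol genes were, with ergosterol at a median of 71.7.

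Nutrient uptake genes were mixed. Of 36 nitrogen genes 4 were abundant and 10 not above background. The general amino acid permease gene GAP1 was at 97.6 and 97.5, and the proline oxidase gene PUT1 at 97.2 and 96.2. DAL1, allantoinase, was lowest at 1.49 and 12.7 on the BF2B slides and stood at 63.5 and 66.3 on the BF2S slides, in row 11. Of 56 genes of inositol, phosphate and metal uptake 5 were abundant. PHO84, the high-affinity phosphate transporter, was at 98.0 and 97.0, the metallothionein genes CUP1-1 and CUP1-2, identical copies, at means of 94.3 and 93.9, and the inositol transporter ITR1 at 91.9. Iron genes (18) had a median of 38.3 with 0 abundant. Thiamine and biotin synthesis had a median of 22.1 with 8 of 16 genes not above background, and THI4, the thiazole synthase gene, led it at 59.0 and 62.9.

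Chromatin genes covered most of the range. Core histones and variants had a median of 90.8 with 5 of 11 abundant, among them HTA2 (H2A) at 97.3 and 97.2 and HHT1 (H3) at 96.2 and 96.5. CSE4, the centromeric H3, was lowest at 37.0 and 34.9 on the BF2B slides and stood at 58.3 and 54.1 on the BF2S slides. Of 13 genes for bromodomain proteins and their TFIID partners 0 were abundant, 5 middling, 3 above background on 1 slide and 5 on neither. BDF2 was the highest, followed by YTA7 at 79.3 and 77.1, RSC2 at 72.2 and 74.9 and STH1 at 73.6 and 67.9, the last 2 being subunits of the RSC remodelling complex. The list median was 37.5 on the BF2B slides and 63.3 on the BF2S slides. Of its 13 genes 3 lie in row 10, and without them the BF2B median was 43.5. Of 5 sirtuin genes HST2, HST1 and HST3 were middling at means of 73.1, 70.7 and 57.8, and SIR2 was not above background. Of 11 SIR partners 4 were middling, with ESC1, a protein of silent chromatin at the nuclear rim, highest at 71.8 and the telomere protein RIF2 lowest at 5.48.

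Genes of sporulation were at the bottom with exceptions. Of 53 genes of meiosis and sporulation 40 were above background on neither BF2B slide, with a median of 11.2. SPS100, of the spore wall, was abundant with 30124.7 and 36633.5 units on the BF2B slides and 41815.7 and 39500.2 units on the BF2S slides. GSC2, a glucan synthase subunit, was middling at 86.7 and 86.2, and RIM11, a kinase that acts with Ime1, at 61.8 and 56.1. SPO16, of crossover formation, read 0.14 and 2.1. The 19 genes of haploid cells and pheromone signalling reached a median of 26.9, yet RME1, the repressor of entry into meiosis, and MCM1, the regulator of mating-type genes, were abundant at means of 94.5 and 94.2. SST2, the regulator that desensitises the pheromone pathway, was at 3.9 and 10.2. Cyclins and cell cycle genes had a median of 41.1 with 0 of 24 abundant. The 6 B-type cyclin genes were at 18.9 and CLB6 was lowest at 18.9 and 2.84, while the G1 cyclin gene CLN3 was at 81.4 and 80.7 and the inhibitor gene SIC1 at 77.6 and 80.1. Of 44 DNA-binding transcription factors GCN4, the activator of amino acid synthesis, and RLM1, a factor of the cell integrity pathway, were abundant at means of 97.3 and 91.0, and BAS1, of purine and histidine synthesis, was lowest at 4.98.

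Gene position was set beside the levels. Counted from the nearer chromosome end, genes in places 6 to 10 had the lowest median, 25.3 on the BF2B slides and 27.1 on the BF2S slides, with 53.9% not above background. In places 1 to 5 the median was 31.2 on the BF2B slides and 44.0 on the BF2S slides. On the BF2B slides 41.9% of these genes were not above background, yet 12.8% were abundant, against 10.3% among the 4587 genes in places 41 and more. The outermost genes include the Y' helicase genes, of which 6 of 8 were abundant at a median of 93.9, and YRF1-6 was highest at 95.4 and 95.1. The COS family, with 11 genes of membrane proteins, held 3 abundant genes, COS3, COS2 and COS4 at means of 94.6, 93.8 and 93.3, 1 middling gene and 7 genes above background on at most 1 BF2B slide, with COS10 lowest at a mean of 13.6. Seripauperin genes (24) had a median of 49.3, with PAU22 highest at 80.8 and 78.9. Members of each of these 3 families are close in sequence. Medians of the nuclear chromosomes lay between 39.4 (VIII) and 59.0 (XIII) on the BF2B slides, and chromosome VIII had 53.9 on the BF2S slides. Of its 278 genes 117 lie in row 10, where the medians were 34.2 on the BF2B slides and 56.5 on the BF2S slides, and its other 161 genes had 44.6 and 48.9. Chromosome and place on the slide go together, so their parts in these medians cannot be told apart.

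**Figure D4:**
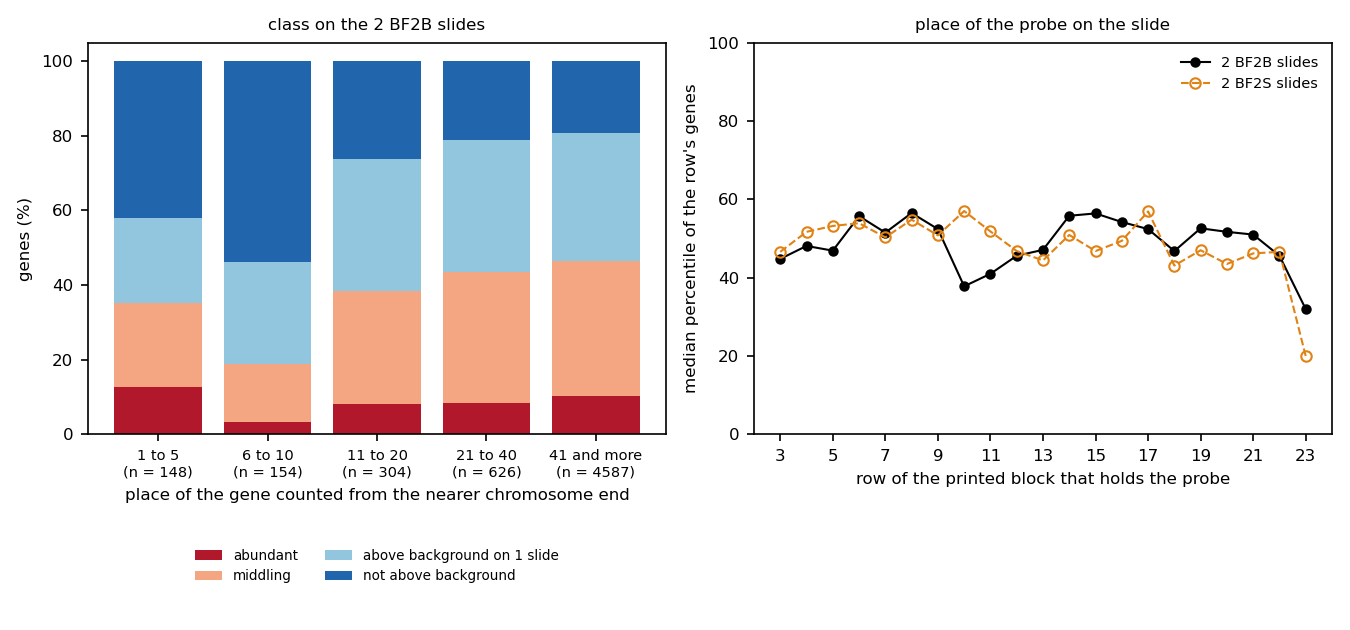
Left, share of genes in the 4 classes by the place of the gene counted from the nearer chromosome end; right, median percentile of the genes in each row of the printed blocks, filled for the 2 BF2B slides and open for the 2 BF2S slides. Genes 6 to 10 from an end are the least often above background, and the pairs of slides lie furthest apart in row 10, at 37.8 on the BF2B and 57.0 on the BF2S slides, with smaller gaps in other rows such as 15, at 56.4 and 46.8.

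Of 35 paralogue pairs, 15 differed by over 20 points on the BF2B slides, and 14 of these did so in the same direction on the BF2S slides. Each is a pair of different probes, so the values stand side by side and are no ratio of messages. Of the phosphoglucomutase genes PGM2 was at 90.7 ± 0.97 (SD, 2 slides), while PGM1, with -53.7 and 147.2 units on the BF2B slides, was not above background. Since BDF1 and PGM1 were at the floor, the size of the gap to their partners cannot be read. Pyruvate kinase was represented by CDC19 at 96.2 ± 0.79, with PYK2 at 36.4 ± 6.53. In the catalase pair CTT1 had 98.2 and the peroxisomal CTA1 46.5 ± 8.03. The main glutamate dehydrogenase gene GDH1 had 88.6 and GDH3 38.2 ± 9.42, and elongation factor 3 had YEF3 at 95.7 ± 0.82 and HEF3 at 48.7 ± 3.4. In a few pairs the gene usually described as minor was the brighter: COX5B, the cytochrome oxidase isoform of low oxygen, was at 91.4 ± 1.15 and COX5A at 53.6 ± 10.17, and the gap was 60.1 points on the BF2S slides. CYC7, the minor cytochrome c, was at 86.3 ± 0.64 and CYC1 at 79.2 ± 3.62. Pairs within 3 points on the BF2B slides include the Hsp90 genes HSC82 and HSP82 and the Hsp110 genes SSE1 and SSE2. GPP2 and GPP1 lay as close, as did the enolase genes ENO2 and ENO1. A small gap near the top of the ranking is not an equal signal. ENO2 had 13768.0 and 23647.8 units on the BF2B slides, and ENO1 had 6977.5 and 12631.7. On the BF2S slides HSC82 had 27434.8 and 28351.7 units, and HSP82 had 11876.3 and 11313.3. Whether members of a pair share signal was not tested.

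**Figure D5:**
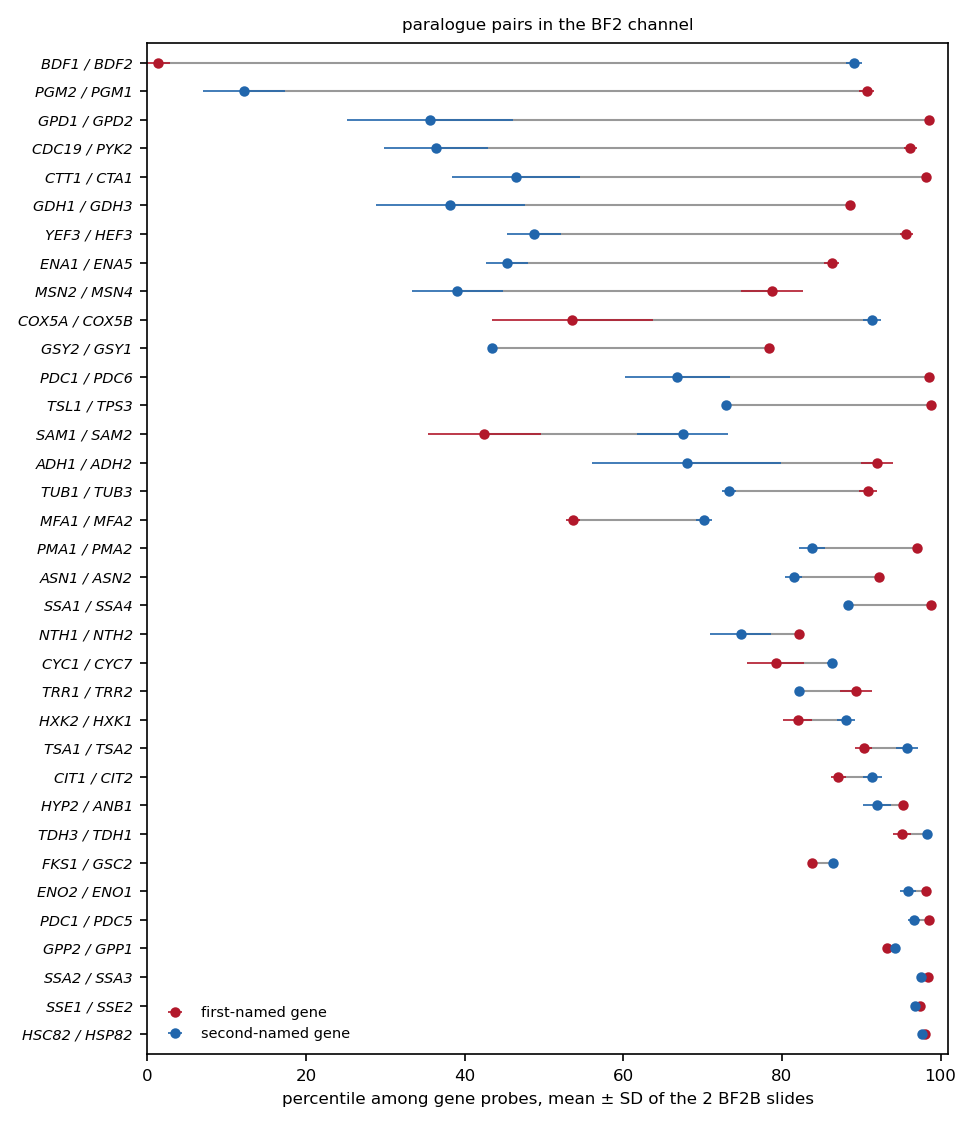
Mean percentile on the 2 BF2B slides of both members of 35 paralogue pairs, with bars for the SD of 2 slides, ordered by the gap between members. Wide gaps are at the top and pairs that coincide near 98 at the bottom; BDF1 and PGM1 were not above background, so the places of these 2 genes on the axis have no exact meaning.

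Differences between the dyes were next counted. Percentiles in Cy5 and Cy3 differed by over 20 points in 47 genes within the BF2B pair and in 98 within the BF2S pair, and in 4 genes in the same direction in both. These 4, NFG1, DHR2, RRI1 and the septin gene CDC12, were higher in Cy3 and not above background on the BF2B slides. CDC12, for instance, stood at 7.66 in Cy5 and 29.1 in Cy3 on the BF2B slides and at 34.6 in Cy5 and 64.5 in Cy3 on the BF2S slides, in row 11. The edges of the abundant class were continuous. Just inside lay RPS9A, PGM2 and VHS3, with lower BF2B percentiles of 90.01, 90.03 and 90.04, and just outside YPL197C and YPR148C at 89.98 and 89.97, with ISF1 between them and the line. Of the abundant genes, HRR25, a casein kinase gene, had the lowest percentile on BF2S slide 2, 78.8, and RPS11A the lowest on BF2S slide 1, 83.0.

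Probes without an entry in the gene table were mostly dim. Of 6388 probes 5849 matched by systematic name, 7 by synonym and the rest not at all. Of the unmatched probes 58.8% were above background on neither BF2B slide and 4.9% were abundant, with a median of 17.8, against 21.8%, 9.8% and 52.1 among matched probes. By length, the 131 matched protein-coding genes under 300 bases had a median of 69.7 with 19.8% abundant, and the 4 longer classes had medians between 45.6 and 54.5.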

How the data were processed

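Total RNA of 2 salt-treated strains per slide was amplified by Eberwine's method, labelled with Cy3 or Cy5 and hybridised together on oligonucleotide arrays, per the labels' protocols. The deposited scanner tables hold spot and local background intensity for both dyes, not normalised, per the file headers. Background-subtracted median intensity, as deposited, was averaged over the 3 spots of each gene probe in the BF2 channel and ranked to a percentile. Nothing was normalised between slides or dyes. The deposited table of log ratios between strains was not used. Spots that carry a mark in the files were kept, since the sources used here do not explain the mark and it falls on dim spots: a median of 144.5 units for marked and 1572.0 for unmarked gene spots on BF2B slide 1. Levels, classes and list medians are descriptions of 4 hybridisations, whose number limits the precision. A gene symbol was taken from the RefSeq gene table (assembly R64) by systematic name or synonym. That table was used only for names, lengths and order along chromosomes. No sequence was used.

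The members and the gene lists were chosen with earlier results of these data known. Genes were named by rule: the 25 highest, BDF1, BDF2, SIR2 and the markers, the 4 highest and the lowest of each list (all members of lists of up to 8 genes), the paralogue pairs, the 10 widest shared dye gaps, the 10 abundant genes lowest on the BF2S slides, and 3 genes on each side of the class line. YMR051C is 1 of the 25 highest. Signals of overlapping or antisense genes are not separated on these arrays. The steps were tested on simulated spots with the local background of the BF2B slides. The simulated background noise was smaller than the local background SD, with no bright blank spots and no row effect. That test therefore cannot show how well the background call works on these slides. Python 3.11.15, NumPy 2.4.6, pandas 2.3.3, matplotlib 3.10.9, R 4.3.3 and limma 3.58.1 were used, the last for a normexp alternative with an offset of 50. Other alternatives changed the background call, the ranking, the percentile line and the slides.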

Additional observations from a re-analysis of the deposited data

Results flagged for a closer look

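Control spots named Y1 to Y8 were used in no comparison, and the labels do not explain them. On the BF2B slides their median BF2 signals exceeded the 95th percentile of the blank spots, 159.5 units on slide 1 and 134.0 units on slide 2. On the BF2S slides that percentile was 3069.1 and 3489.6 units, and only Y1 and Y2 had medians above it. Y1 had medians of 15969.8 and 23981.0 units on BF2B slides 1 and 2, and Y2 had 11077.2 and 16477.2 units. Y6 had 6338.0 and 8421.0 units and Y8 had 5479.0 and 7427.8 units. Y3 had 2837.0 and 4147.0 units. Y5 had 1068.0 and 1859.8 units and Y7 had 1157.8 and 1868.8 units. Y4 was the dimmest of the 8 on both BF2B slides, at 251.0 and 415.2 units, and 0.7% of its spots were above local background on BF2B slide 1.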

How the results depend on the processing

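The 601 abundant genes became 295 with the line at percentile 95 and 1209 at percentile 80, 318 without marked spots and 273 when ranked among probes above background, and both of the last 2 remove dim probes from the ranking by construction. Without BF2B slide 1 or 2 they numbered 639, a count that the percentile line alone fixes when 1 slide is used. The line likewise sets an upper bound on the counts of 601, 295 and 1209. In the check on the BF2S slides, 543 of the 601 genes were abundant there too. That count became 263, 1081, 219 and 272 under the same 4 settings. Called by the 95th percentile of blank spots, middling genes numbered 3947, genes above background on 1 BF2B slide 929 and genes above on neither 911. With the BF2S slides in place of the BF2B slides these counts were 4201, 1205 and 379. With all 4 slides, genes above background on some slides numbered 3335 and on none 349. Leaving out 1 BF2B slide gave 2090 to 4157 middling genes and 1592 to 3659 genes not above background, and the third class does not exist on 1 slide. Without BF2B slide 1 the middling genes were 4157, and without BF2B slide 2 the genes not above background were 3659. The 4 genes with a shared dye gap became 2 with no background subtraction, 0 without marked spots and 103 among probes above background. The causes were not tested. With the BF2S slides in place, 5 of 44 list medians moved by over 10 points, most for the bromodomain list, by 25.8, and so did 51 of 320 named genes, most for DAL1, by 57.8. Leaving out marked spots moved 15 of 44 list medians and 52 of 320 named genes by over 10 points, and 42 of the 44 medians went down. Marked gene spots made up 54.6% on BF2B slide 1 and 0.0% on BF2B slide 2, so these shifts come from slide 1 only. There 3208 genes had no unmarked spot. Ranking among probes above background moved 22 of 43 list medians, hexose transport most, by 57.4, and 92 of 268 named genes. The normexp correction, the median of 3 spots and the ranks without background subtraction moved 0 list medians by over 10 points. Without the genes of row 10, a setting chosen after seeing the data, 525 abundant genes were abundant on the BF2S slides too. No paired analysis was possible because no test was made. Signal over background limits the dim genes, whose class rests on the call used.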
